A study of Mus musculus with 3 samples.

Results

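The transcription factors described here are 10 genes known from the making of retinal amacrine cells: *Foxn4*, *Ptf1a*, *Prdm13*, *Tfap2a*, *Tfap2b*, *Pax6*, *Ebf3*, *Neurod2*, *Nhlh2* and *Meis2*. They were chosen by symbol, all 10 were found among the 33696 genes of the deposited tables, and they were followed in GABAergic and glycinergic amacrine cells, precursors and Müller glia. The data were droplet single-cell RNA counts from mouse retinas at postnatal day 6, in 3 libraries with 1 library per genotype. The labels give the wild-type (WT) mice as WT and name no targeted allele for them. *Tspan12* KO mice lack *Tspan12*, a co-receptor of Norrin, in the whole body. *Ctnnb1* cKO mice carried a floxed *Ctnnb1* (beta-catenin) and *Pdgfb*-iCreER, an endothelial driver, and received tamoxifen after birth. The strain background was C57BL/6 throughout, each library pooled several mice, and neither knockout was compared with WT littermates. The labels call the cells retinal vascular cells, because dissociated retinas had been enriched with beads for CD31 and CD11b, markers of endothelial and myeloid cells. The neurons described here are therefore cells that came through this enrichment, and their shares describe the preparation. With 1 library per genotype, genotype and library cannot be told apart, no test of a genotype is possible, and intervals below are 95% intervals that cover counting error only. Unless stated otherwise, 3 values in a row stand for WT, *Tspan12* KO and *Ctnnb1* cKO in this order.

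Amacrine cells are interneurons of the inner retina that release GABA or glycine. In progenitors the forkhead factor *Foxn4* acts before *Ptf1a*, a basic helix-loop-helix (bHLH) factor that commits newborn cells to the amacrine and horizontal fates, and *Prdm13*, *Tfap2a* and *Tfap2b* act after *Ptf1a*. *Pax6* is made in progenitors and kept in amacrine cells, *Ebf3*, *Neurod2* and *Nhlh2* belong to families that act in postmitotic neurons, and *Meis2*, a homeobox factor of the TALE class, is known as a marker of GABAergic amacrine cells.

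Promoters were read for all 10 members from RefSeq on build GRCm38.p6, as the 250 bases before each start. Those of *Nhlh2* (chr3:102009895-102010144, + strand) and *Neurod2* (chr11:98329646-98329895, - strand) are shown because the levels of both bHLH genes were higher in glycinergic-like than in GABAergic-like cells in WT and both windows hold the same run of letters, given in capitals. It joins TGACAG, a TALE core, to CAGATG, an E-box read as CATCTG on the other strand.
Nhlh2: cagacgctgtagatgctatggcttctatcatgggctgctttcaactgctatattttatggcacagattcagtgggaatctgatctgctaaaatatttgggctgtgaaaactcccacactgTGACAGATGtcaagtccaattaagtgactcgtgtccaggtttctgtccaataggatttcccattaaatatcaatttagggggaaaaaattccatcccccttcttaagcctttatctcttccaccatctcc
Neurod2: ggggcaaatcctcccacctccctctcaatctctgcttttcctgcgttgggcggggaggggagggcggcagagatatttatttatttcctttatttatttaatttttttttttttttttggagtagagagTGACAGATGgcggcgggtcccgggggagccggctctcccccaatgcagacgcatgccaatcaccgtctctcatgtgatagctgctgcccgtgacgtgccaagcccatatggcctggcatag
The joined run TGACAGATG began 130 bases before the *Nhlh2* start and 121 bases before the *Neurod2* start, and it was picked after the matches were seen. Searched on both strands, it occurred in 107 of 32851 mouse promoters of this length, or 0.326%. Alone, TGACAG occurred in 15.9% and CATCTG in 14.4% of promoters. The windows of *Pax6* and *Ebf3* also held TGACAG. The AP-2 pattern GCCNNNGGC, found in 13.7% of promoters, occurred in the windows of *Pax6* and *Ebf3*, and the EBF palindrome, found in 0.779%, occurred in that of *Neurod2*. These matches describe letters in the windows and not binding.

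After filtering, 8989 WT, 12732 *Tspan12* KO and 8451 *Ctnnb1* cKO cells were used. Amacrine cells numbered 677, 834 and 241, with median depths of 4975, 3847.5 and 2220 UMIs (unique molecular identifiers, each 1 captured transcript). They comprised GABAergic-like cells (254, 315 and 47), glycinergic-like cells (312, 330 and 190) and a subcluster that could not be named (111, 189 and 4). Precursors numbered 703, 491 and 53, and Müller glia-like cells 995, 832 and 436. Some of these numbers moved with the processing. The 190 *Ctnnb1* cKO glycinergic-like cells became 17 without doublet removal and 25 at a limit of 5% mitochondrial UMIs, while amacrine cells of that library numbered 268 and 248. Its Müller glia-like cells numbered 71, 74, 82 and 87 under other filters or clusterings, and WT precursors 1128, 1159 and 1162 under 3 of them, so levels in these classes depend on which cells they hold. Levels of markers describe the named groups. They are no check of the names, because clustering and the naming rule had used the same genes. *Gad1*, which makes GABA, reached 219, 196 and 145 UMIs per 1000000 UMIs of the class (CPM) in GABAergic-like cells and 2.49, 0.787 and 3.94 CPM in glycinergic-like cells. *Slc6a9*, the glycine transporter, reached 136, 164 and 98.4 CPM in glycinergic-like cells and 6.28, 17.6 and 0 CPM in GABAergic-like cells. However, *Gad2* went against the name, at 346, 234 and 143 CPM in glycinergic-like and 174, 137 and 126 CPM in GABAergic-like cells. The Müller glia-like cells had only 3 of their markers raised, *Rlbp1*, *Slc1a3* and *Dkk3*. The *Ctnnb1* cKO library stood apart before any result. Of its 190 glycinergic-like cells, 169 lay in 1 subcluster of 176 cells, and the 8 rod markers summed to 3034 CPM in its glycinergic-like cells, against 320.2 CPM in WT and 778 CPM in *Tspan12* KO. The 8 microglia markers summed to 763 CPM there, against 111 and 77.1 CPM. None of the rod markers was at 0 in these 3 sums. Libraries shared 21 to 37 cell barcodes by pair.

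*Ptf1a* (ENSMUSG00000026735) had its highest pooled level in glycinergic-like cells, and within named amacrine cells nearly all its UMIs lay there. Of all *Ptf1a* UMIs in a library, however, glycinergic-like cells held 29.1%, 9.34% and 25.3%, and rods held 4.55%, 7.83% and 47.5%. WT precursors held 12.6%, and an amacrine subcluster left out for its depth (S5) held 169 UMIs in WT. Cones, not among these shares, were at 15.1, 4.82 and 7.95 CPM. In *Tspan12* KO cones held 53324419 UMIs of all genes, against 1270582 in glycinergic-like cells. Cones of that library thus held more *Ptf1a* UMIs than glycinergic-like cells. Its level in glycinergic-like cells was 119.6, 29.1 and 32.8 CPM. In GABAergic-like cells it was 2.51, 1.71 and 0 CPM, from 4, 3 and 0 UMIs. All 192 UMIs of the WT glycinergic-like cells, and all 37 of those in *Tspan12* KO, lay in subcluster S2, whose leading genes included *Igfbpl1*, *Klhl35* and *Pou3f1*. Within S2, 38 of 86 WT cells held a *Ptf1a* UMI and no cell held more than 17. The other glycinergic-like subclusters with at least 10 cells in WT or *Tspan12* KO held 0 UMIs. In the *Ctnnb1* cKO library 5 of 25 UMIs lay in S2 and 20 in the subcluster S3 that came mostly from that library.

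*Prdm13* (ENSMUSG00000040478), a zinc finger factor, was found in more than one glycinergic-like subcluster. Its level there was 498, 257 and 131 CPM, and 1.26, 4.55 and 0 CPM in GABAergic-like cells. The unnamed subcluster held 573 CPM in WT and 366 CPM in *Tspan12* KO. In WT, S1 and S2 held 579 and 628 CPM, whereas the glycinergic-like S9 and S12 held 0 UMIs in 45 and 25 cells.

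*Foxn4* (ENSMUSG00000042002) was almost absent from amacrine cells at this depth. Glycinergic-like cells held 0 UMIs in each library, of 1605402, 1270582 and 762401 UMIs in all, and GABAergic-like cells held 1, 2 and 0 UMIs. Precursors held 5.93 CPM in WT and 6.91 CPM in *Tspan12* KO, and 0 UMIs in *Ctnnb1* cKO, where a count of 0 allows up to 20.03 CPM. In WT, 39.2% of all 217 *Foxn4* UMIs lay in progenitors, which held 3.71% of the UMIs of the library. Progenitors held 8.83% of 283 *Foxn4* UMIs in *Tspan12* KO and 14.3% of 49 in *Ctnnb1* cKO, beside 1.14% and 0.766% of all UMIs. Rods held 53.1% in *Ctnnb1* cKO. Cones of *Tspan12* KO were at 3.71 CPM, over 53324419 UMIs of all genes.

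*Tfap2b* (ENSMUSG00000025927) and *Tfap2a* (ENSMUSG00000021359), both AP-2 factors, had the reverse order. *Tfap2b* reached 2119, 1700.2 and 2038 CPM in GABAergic-like cells, and 429, 296 and 249 CPM in glycinergic-like cells. *Tfap2a* reached 367, 258 and 464 CPM in GABAergic-like cells and 137, 74.0 and 69.5 CPM in glycinergic-like cells. In each library the GABAergic-like cells came first and the glycinergic-like cells second among all classes for both genes, with separate intervals. Amacrine cells held 70.5%, 67.9% and 65.4% of the *Tfap2b* UMIs of the 3 libraries, and 73.4%, 67.9% and 66.9% of the *Tfap2a* UMIs. They held 4.90%, 3.53% and 2.73% of all UMIs.

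*Ebf3* (ENSMUSG00000010476), a helix-loop-helix factor of the EBF family, was at 1681 CPM in WT and 1625 CPM in *Tspan12* KO in the unnamed cells, the highest of the pooled classes. Glycinergic-like cells held 767, 776 and 407 CPM. GABAergic-like cells held 6.28, 46.7 and 0 CPM. *Nhlh2* (ENSMUSG00000048540) was at 679, 605 and 99.7 CPM in glycinergic-like cells and 62.2, 105 and 48.3 CPM in GABAergic-like cells. Intervals for the glycinergic-like and the unnamed cells overlapped in WT and *Tspan12* KO, so these 2 groups were not ordered for *Nhlh2*. *Neurod2* (ENSMUSG00000038255) was at 100.3, 69.3 and 39.3 CPM in glycinergic-like cells and 2.51, 2.85 and 0 CPM in GABAergic-like cells.

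*Pax6* (ENSMUSG00000027168) differed least between GABAergic-like and glycinergic-like cells among the members tested. It was at 596, 507 and 724 CPM in GABAergic-like cells and 812, 566 and 547 CPM in glycinergic-like cells. Müller glia-like cells held 268, 257 and 453 CPM and precursors 132, 141 and 154 CPM. *Meis2* (ENSMUSG00000027210) reached 1654, 1929.5 and 2057 CPM in GABAergic-like cells, the highest class in each library, and 294, 391 and 616 CPM in glycinergic-like cells. It was also present in photoreceptors, with 1279.9, 995 and 652 CPM in rods, and 494, 575 and 627 CPM in precursors. Müller glia-like cells held 109, 153 and 180.4 CPM of it.

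**Figure D1:**
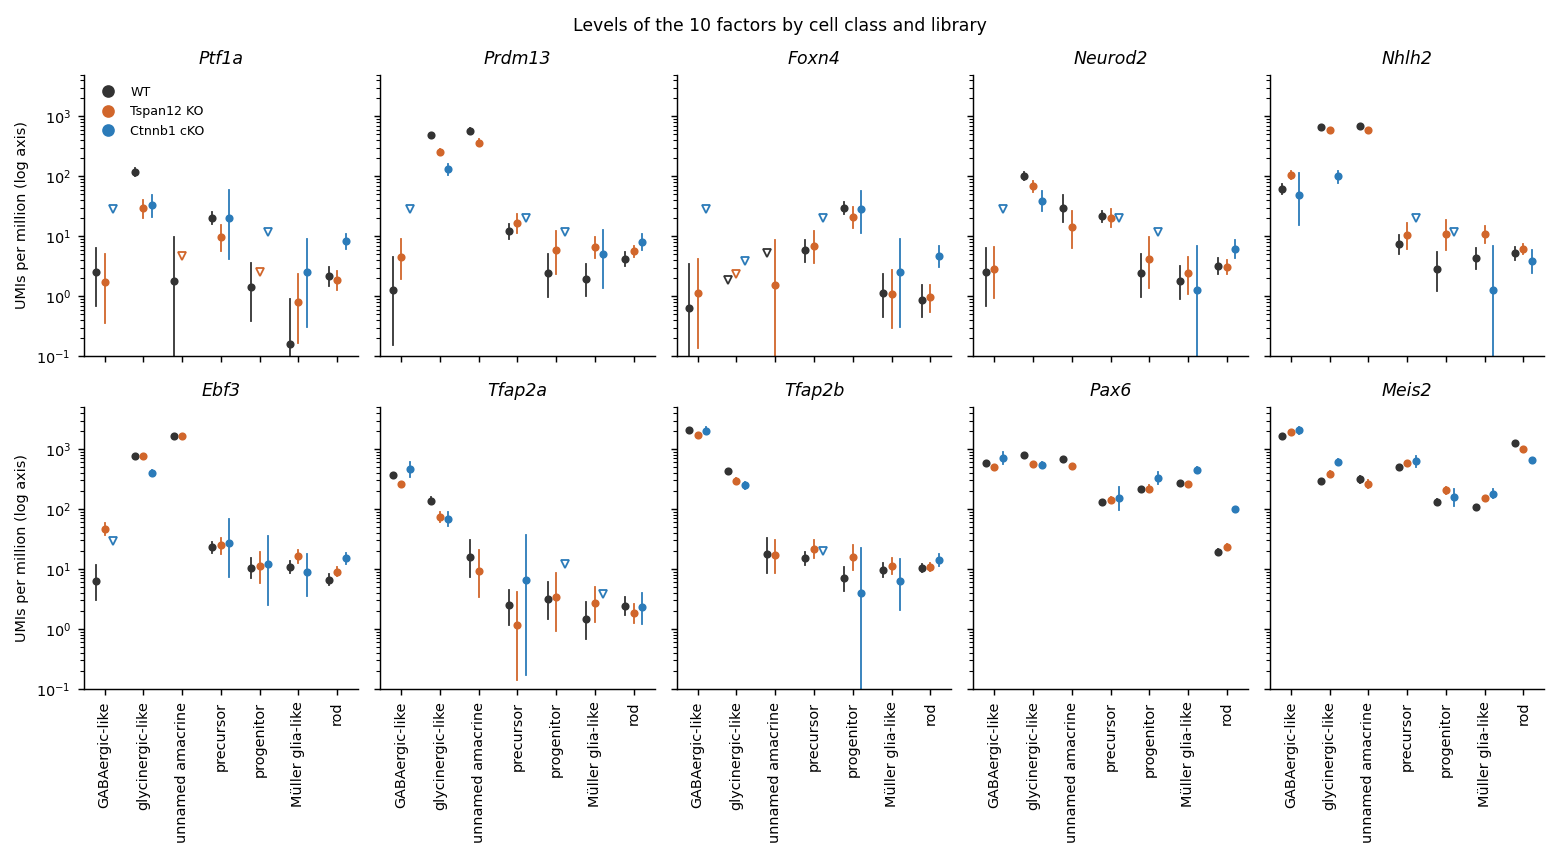
Levels of the 10 factors in CPM (log axis) by cell class and library, with 95% Poisson intervals. Open triangles mark the level that 3 counts would give where 0 UMIs were counted, classes with under 30 cells are not drawn, and *Tfap2b* is highest in GABAergic-like cells (1700.2 to 2119 CPM).

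Amacrine cells were next set against Müller glia-like cells of the same library. A member counted as higher or lower when its log2 ratio, with 5 CPM added to each level, was at least 1 in size and both sums together held at least 50 UMIs. Of 7 members with enough UMIs in all 3 libraries, 6 were higher in amacrine cells in each library (*Tfap2a*, *Tfap2b*, *Prdm13*, *Ebf3*, *Nhlh2* and *Meis2*), against 6.5% of 6201 genes tested in the same way, and 0 were lower, against 5.93%. *Tfap2b* had levels of 1083, 921 and 451 CPM in amacrine cells and 9.73, 11.3 and 6.26 CPM in Müller glia-like cells, and log2 ratios of 6.80, 6.35 and 6.17. *Prdm13* levels were 299, 155 and 124 CPM against 1.95, 6.70 and 5.01 CPM. *Pax6* passed in WT (log2 ratio 1.39) and *Tspan12* KO (1.04) and not in *Ctnnb1* cKO (0.34, 0.14 to 0.54), where the Müller glia-like cells held 453 CPM. Within single libraries, 9 of 9 tested members were higher in WT (12.2% of all genes), 8 of 8 in *Tspan12* KO (12.3%) and 6 of 7 in *Ctnnb1* cKO (10.3%). None was lower, against 11%, 9.14% and 7.16% of genes. The classes come from clusters of the same cells, made without the 10 members among the variable genes, so these contrasts are descriptions.

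GABAergic-like and glycinergic-like cells divided the members. In all 3 libraries *Tfap2a*, *Tfap2b* and *Meis2* were higher in GABAergic-like cells (3 of 7 members, against 2.65% of 3587 genes), and *Ebf3* and *Prdm13* were lower (2 of 7, against 2.26%). *Tfap2b* had log2 ratios of 2.30 (2.18 to 2.42), 2.52 (2.37 to 2.68) and 3.03 (2.74 to 3.32). *Meis2* had ratios of 2.49, 2.30 and 1.74. *Ebf3* had ratios of −6.93 in WT and −4.06 in *Tspan12* KO, and in *Ctnnb1* cKO, where 0 UMIs were counted in GABAergic-like cells, the interval lay below −3.50. *Nhlh2* was lower in WT (−3.45) and *Tspan12* KO (−2.52), and stood at −1.05 (−2.71 to 0.24) in *Ctnnb1* cKO. *Neurod2* was lower in WT (−5.32) and *Tspan12* KO (−4.61), and *Ptf1a* in WT (−5.57). In WT, 5 of 9 tested members were thus lower in GABAergic-like cells, against 4.31% of all genes, and 3 were higher, against 7%. In *Tspan12* KO 3 of 8 were higher (6.41%) and 4 lower (3.53%), and in *Ctnnb1* cKO 3 of 7 were higher (8.67%) and 2 lower (18%). *Pax6* kept below the threshold in each library, with ratios of −0.44, −0.16 and 0.41. A selection of cells by *Gad* and glycine transporter UMIs in place of clusters turned the direction for *Ptf1a*, *Prdm13*, *Ebf3*, *Nhlh2* and *Neurod2* in WT. Of the WT cells selected as GABAergic in that way, 21.2% came from the glycinergic-like or unnamed subclusters, where *Gad2* was present, and only 60.4% of those selected as glycinergic lay in amacrine clusters.

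**Figure D2:**
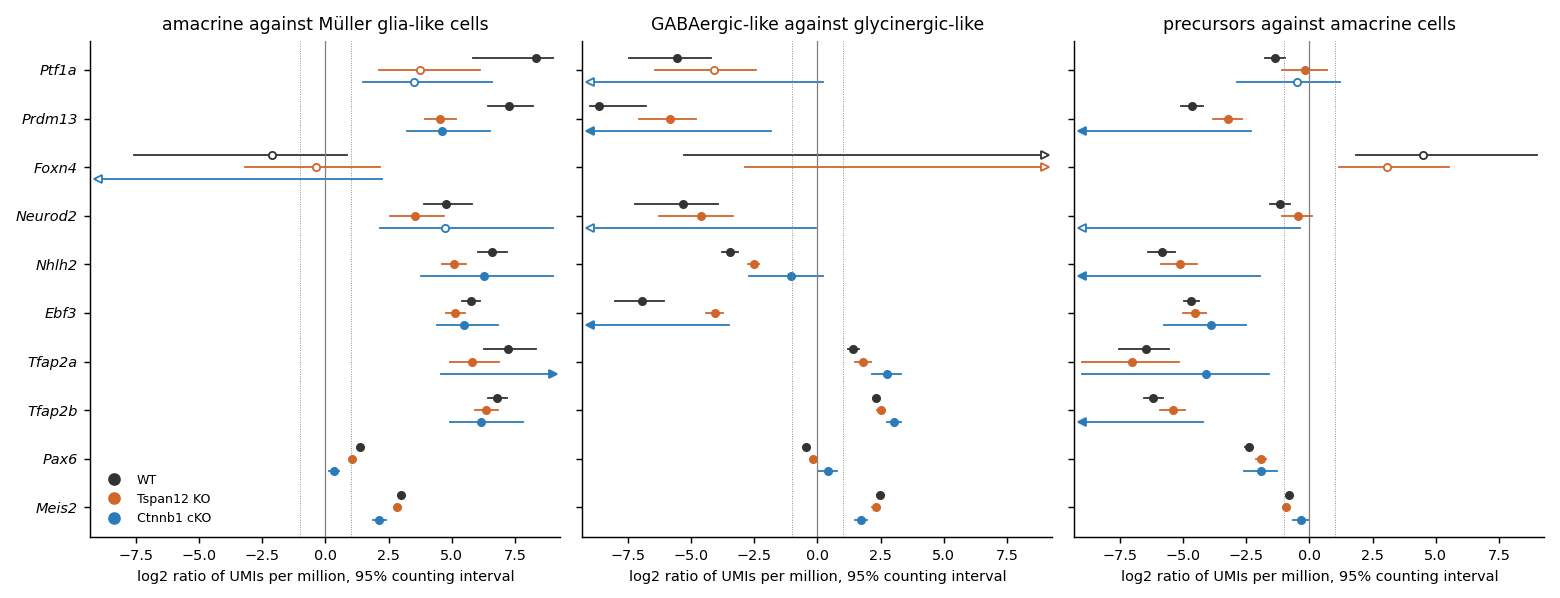
Log2 ratios of CPM between cell classes within each library, with 95% counting intervals. Dotted lines mark a ratio of 1 in either direction, open symbols have under 50 UMIs, arrowheads run beyond the axis, and *Tfap2b* lies at 2.30, 2.52 and 3.03 between GABAergic-like and glycinergic-like cells.

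Within both groups the subclusters carried different sets of members. Among GABAergic-like subclusters, *Meis2* ranged from 2146 CPM in S8 to 3148 CPM in S14 across S4, S8, S11, S14 and S15 in WT, but was 104 CPM in S6 and 180.2 CPM in S7. *Gad1* was present in S6 and S7 at 161 and 163 CPM. In *Tspan12* KO the same 2 subclusters held 199 and 26.4 CPM of *Meis2*. The starburst-marked S16, with 23 *Tspan12* KO cells, had 150.4 CPM of *Meis2* and 425 CPM of *Nhlh2*, the highest *Nhlh2* level among the GABAergic-like subclusters of that library with at least 10 cells. *Tfap2b* ranged from 2269 to 3560 CPM in S4, S6, S7 and S8 of WT, and was 26.3 CPM in S15 of WT and 0 UMIs in S15 of *Tspan12* KO. S15 was GABAergic-like with *Gad1* at 389 CPM in WT, and held *Meis2* at 2706 CPM.

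The glycinergic-like subclusters split in the opposite way. S9 and S12 held *Tfap2b* at 1259 and 1335 CPM in WT and 849 and 1111 CPM in *Tspan12* KO. Both were near 0 for *Ebf3*, with 1 UMI each in WT, and held *Neurod2* at 219.9 and 171 CPM in WT. In contrast, S13 held *Ebf3* at 1856 CPM in WT and 1553 CPM in *Tspan12* KO, with *Tfap2b* at 20.2 CPM and 0 UMIs. S1 combined *Nhlh2* (983 CPM in WT), *Prdm13* and *Ebf3* (780.1 CPM). S12, with *Gad2* at 22.8 CPM and *Slc6a9* at 194 CPM in WT, had the least *Gad2* of the WT glycinergic-like subclusters with at least 10 cells.

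**Figure D3:**
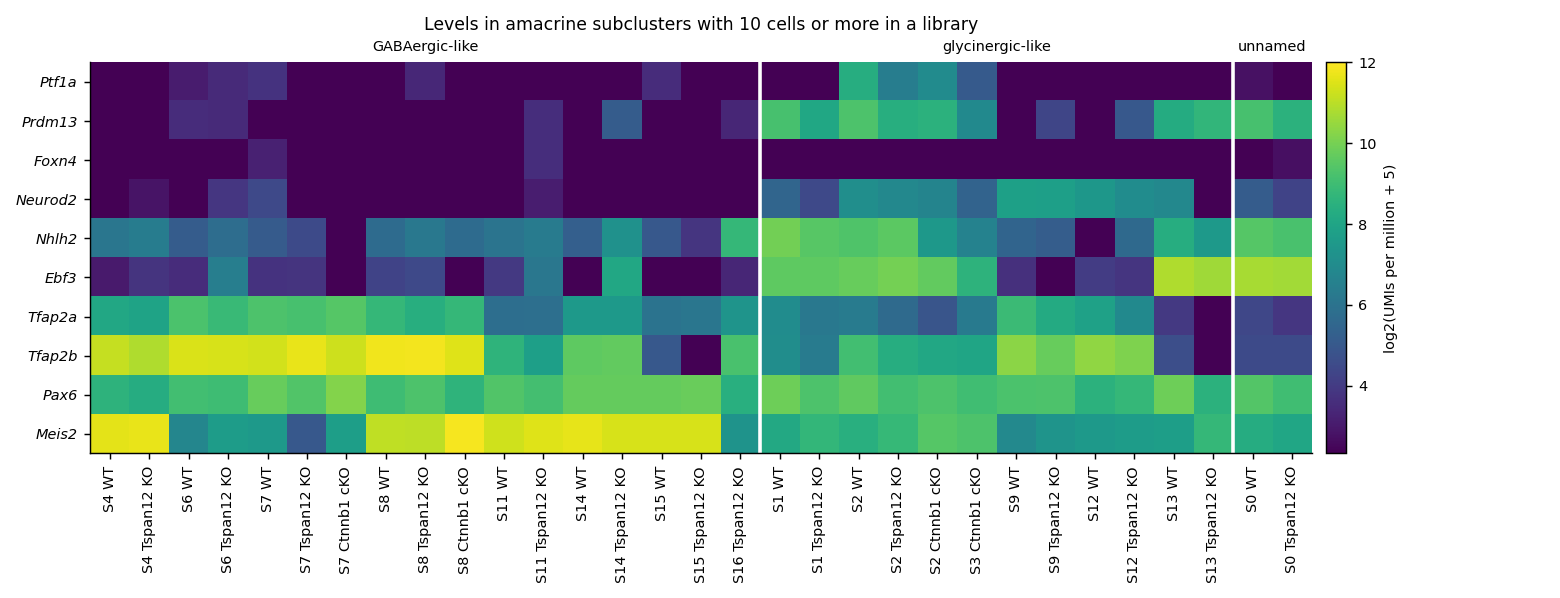
Levels of the 10 factors, as log2 of CPM plus 5, in amacrine subclusters with at least 10 cells in a library. *Ptf1a* is visible mainly in S2 (321 CPM in WT) and in the mostly *Ctnnb1* cKO subcluster S3, and *Ebf3* is low and *Tfap2b* high in S9 and S12, whereas S2 holds both (862 and 526 CPM in WT).

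Shares of single cells were read next, over all amacrine cells without a split by transmitter. Each cell was thinned to 2000 UMIs, which left 524 WT, 574 *Tspan12* KO and 136 *Ctnnb1* cKO amacrine cells and left out 153, 260 and 105 shallower ones. *Pax6* had a UMI in 65.8%, 63.9% and 56.6% of them, *Tfap2b* in 49.0%, 40.6% and 32.4%, *Prdm13* in 34.0%, 25.3% and 22.8%, and *Ptf1a* in 4.39%, 1.92% and 5.88%. Without thinning, *Ptf1a* was found in 6.35%, 2.28% and 6.64% of all amacrine cells. In rods, which served as background at median depths of 4109.5, 2031 and 1584.5 UMIs, the thinned shares were 2.07%, 1.73% and 3.39% for *Tfap2b* and 0.427%, 0.123% and 0.260% for *Ptf1a*. For 7 members the share in amacrine cells exceeded that in rods in all 3 libraries, and the intervals did not overlap. The exceptions were *Foxn4*, *Neurod2*, whose intervals overlapped in *Ctnnb1* cKO, and *Meis2*, which was found in more rods (74.9% in WT) than amacrine cells (42.7%). Thinned shares were computed for the members only, so the count of 7 has no share over all genes beside it. *Foxn4* had a UMI in 1 of 524 WT amacrine cells and in 0 of 574 *Tspan12* KO cells, where a count of 0 allows a share of cells with a UMI of up to 0.523% (3 counts), or 0.641% by the Clopper-Pearson interval.

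*Ebf3* and *Tfap2b* seldom shared a cell. In WT, 14.8% of cells with a *Tfap2b* UMI also held *Ebf3* (38 of 257), against 61.4% of cells without one. The shares were 15.5% against 62.2% in *Tspan12* KO and 18.2% against 57.6% in *Ctnnb1* cKO, with separate intervals in each library. The AP-2 pair went together, as 45.5% of *Tfap2b* cells and 13.5% of the others held *Tfap2a* in WT, with 30.9% against 7.62% in *Tspan12* KO and 38.6% against 5.43% in *Ctnnb1* cKO. *Prdm13* was found in 65.3%, 46.8% and 41.0% of cells with an *Ebf3* UMI, and in 14.3%, 8.90% and 8% of cells without one. *Ptf1a* was found with *Tfap2b* more often than *Prdm13* was. Of 23 WT cells with a *Ptf1a* UMI, 19 held *Tfap2b* (82.6%) and 15 held *Prdm13*, while 24.2% of all WT *Prdm13* cells held *Tfap2b*. In *Tspan12* KO, 9 of 11 *Ptf1a* cells held *Tfap2b* and 7 held *Prdm13*. Cells of a library are not replicates, and pairs of members share the depth of a cell.

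**Figure D4:**
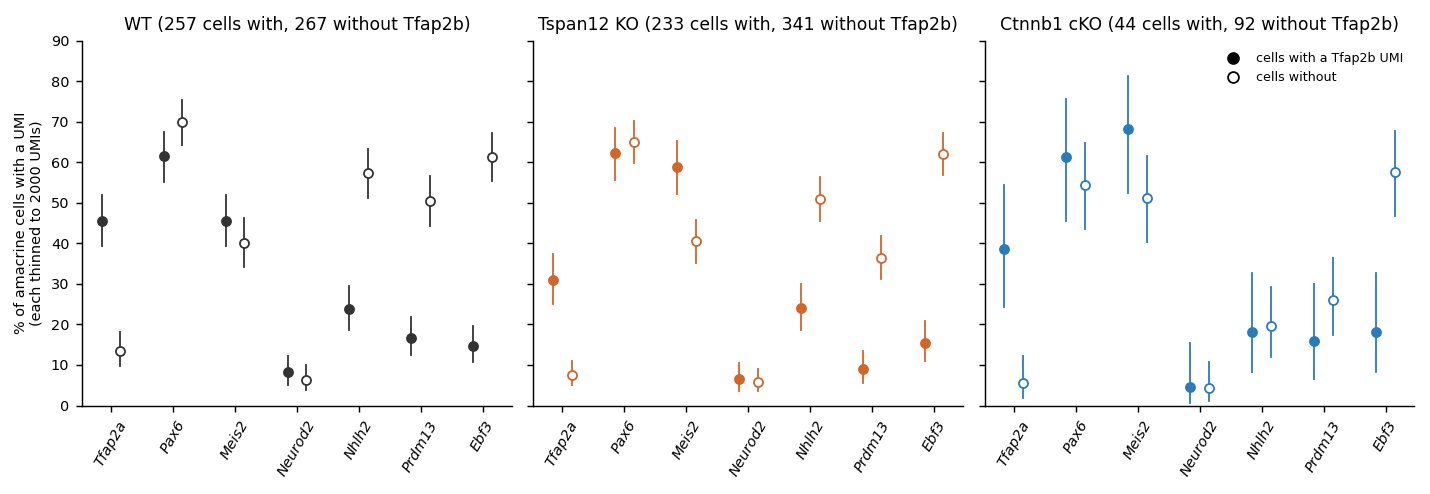
Percent of amacrine cells with a UMI of each factor among cells with and without a *Tfap2b* UMI, in each library, after thinning to 2000 UMIs per cell. In WT, *Ebf3* is found in 14.8% of cells with and 61.4% of cells without *Tfap2b*.

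Precursors, the neurogenic cells marked by genes such as *Hes6* and *Dll1*, had lower levels of most members than amacrine cells. Of 7 members tested in all 3 libraries, 6 were lower (*Tfap2a*, *Tfap2b*, *Prdm13*, *Pax6*, *Ebf3* and *Nhlh2*), against 6.49% of 4330 genes, and 0 were higher, against 2.82%. Within libraries, 7 of 9 were lower in WT (12.6% of genes), 6 of 9 in *Tspan12* KO (12.8%) and 6 of 7 in *Ctnnb1* cKO (12.4%), and 0 were higher, against 7.4%, 5.88% and 6.74%. *Tfap2b* was at 15.1 CPM in WT precursors and 1083 CPM in amacrine cells, a log2 ratio of −6.17 (−6.56 to −5.80). *Pax6* had the smallest of these differences, with ratios of −2.40, −1.91 and −1.90. *Meis2* did not pass, with ratios of −0.82, −0.94 and −0.33. *Ptf1a*, which acts early, differed less than those 6, at 20.5 CPM in precursors and 52.4 CPM in amacrine cells of WT (83 and 197 UMIs, log2 ratio −1.35), and at 9.79 and 10.9 CPM in *Tspan12* KO (−0.16, −1.07 to 0.69). *Neurod2* was at 21.7 and 20.2 CPM in WT and *Tspan12* KO precursors. *Foxn4* was the one member with a higher level in precursors than in amacrine cells of WT and *Tspan12* KO, from 24 against 1 in WT and 12 against 3 in *Tspan12* KO, too few to pass.

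The *Tspan12* KO library was then compared with WT within GABAergic-like and glycinergic-like cells, precursors and Müller glia-like cells. *Ptf1a* had a lower level in glycinergic-like cells, 29.1 CPM (20.5 to 40.1) against 119.6 CPM (103 to 138), a log2 ratio of −2.04 (−2.59 to −1.52). It was the 1 member called lower of 9 tested there, against 0.375% of 8000 genes, and 0 were higher, against 0.925%. The share of cells with a UMI was 4.61% (2.23 to 8.31%) of 217 cells in *Tspan12* KO and 10.9% (7.16 to 15.6%) of 230 cells in WT after thinning, with overlapping intervals, and the unthinned median depths were 3620 and 4980.5 UMIs. S2 held 100 of 330 glycinergic-like cells in *Tspan12* KO and 86 of 312 in WT. Within S2 the level was 81.9 CPM from 37 UMIs in 17 of 100 cells, against 321 CPM from 192 UMIs in 38 of 86 cells, a ratio of −1.97 (−2.52 to −1.46), where 1.12% of 4187 genes were called lower and 0.86% higher. With 5 CPM added the ratio in glycinergic-like cells was −1.87, and it was −0.44 with cells selected by marker UMIs, which no longer passes. Other values of *Ptf1a* in the *Tspan12* KO library were 9.79 CPM in precursors against 20.5 CPM, a ratio of −1.07 that did not pass with 5 CPM added. Cones, outside the 4 classes, held 4.82 CPM (4.25 to 5.45) against 15.1 CPM (12.7 to 17.8), so a lower level was also seen in cells named as cones. These cones were deep, with medians of 22454.5 UMIs in *Tspan12* KO and 25951 UMIs in WT. Their rod markers summed to 4048 and 3647 CPM in the same order. The part of mixed barcodes in the cone values was not tested. Rods held 1.85 against 2.17 CPM, with overlapping intervals. Müller glia-like cells went the other way, at 0.804 against 0.162 CPM, from 3 and 1 UMIs.

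Several other members had lower levels in *Tspan12* KO glycinergic-like cells without passing. *Prdm13* had a ratio of −0.96 (−1.15 to −0.77), *Tfap2a* −0.89, *Tfap2b* −0.54, *Neurod2* −0.53 and *Pax6* −0.52, while *Ebf3* stood at 0.02 (−0.11 to 0.14). The median over all genes tested was 0.01. Within subcluster S1 *Prdm13* passed, at 263 CPM against 579 CPM (−1.14, −1.41 to −0.86), where 0.84% of genes were called lower and 2.06% higher. *Pax6* passed within S13, at 368 CPM in 19 cells against 918 CPM in 30 cells (−1.32, −2.14 to −0.58). There 4.39% of genes were called lower and 3.66% higher. Rod markers summed to 778 CPM in *Tspan12* KO glycinergic-like cells and 320.2 CPM in those of WT, and their part in these values was not tested.

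*Ebf3* was the 1 member called higher, in GABAergic-like cells, at 46.7 CPM against 6.28 CPM (82 against 10 UMIs, log2 ratio 2.89), where 1.03% of 8769 genes were called higher and 0.331% lower. However, 61 of the 82 UMIs lay in 3 cells, and with the 3 highest cells left out of each sum the ratio with 5 CPM added was 0.85 in place of 2.20. It was also 0.20 among cells with at most 5% mitochondrial UMIs. *Ebf3* UMIs were found in 19 of 315 *Tspan12* KO and 10 of 254 WT GABAergic-like cells. The difference therefore rests on a few cells. Rod markers summed to 627 CPM in these *Tspan12* KO cells and 268 CPM in WT, and their part in the value was not tested. In precursors and Müller glia-like cells 0 members passed, of 7 and 5 tested. There the shares of genes called higher were 0.455% and 0.701%, and of genes called lower 0.283% and 0.184%.

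The *Ctnnb1* cKO library was set against the same WT library. In glycinergic-like cells 5 of 9 members tested passed. *Nhlh2* (99.7 against 679 CPM, −2.77), *Prdm13* (131 against 498 CPM, −1.92), *Ptf1a* (32.8 against 119.6 CPM, −1.87) and *Neurod2* (39.3 against 100.3 CPM, −1.35) were lower, where 11.6% of 7403 genes were called lower. *Meis2* was higher, at 616 against 294 CPM (1.07, 0.88 to 1.26), where 8.51% were called higher. These 190 cells were mostly the 169 cells of S3, and the sums of rod and microglia markers in them were 3034 and 763 CPM, against 320.2 and 111 CPM in WT. *Meis2* was at 652 CPM in rods of the same library. The part of these markers in the values was not tested. Without S3, with 5 CPM added, only *Nhlh2* still passed (−1.98), while *Prdm13* stood at −0.71, *Neurod2* at −0.54, *Ptf1a* at −0.49 and *Meis2* at 0.89. *Nhlh2* passed in each alternative run, from −2.80 to −1.02. Without doublet removal *Ptf1a* was at −0.06, *Prdm13* at −0.52, *Neurod2* at −0.17 and *Meis2* at 0.27, and with whole amacrine clusters *Meis2* turned to −0.54. Within S2, where both libraries had at least 10 cells, 11 *Ctnnb1* cKO cells held *Nhlh2* at 173 CPM against 641 CPM (−1.89, −3.22 to −0.83) and *Ptf1a* at 123 CPM against 321 CPM (−1.38, −3.02 to −0.13), and *Meis2* at 691 CPM against 343 CPM (1.01, 0.39 to 1.59), with 18% of genes called lower and 5.49% higher. *Ebf3* in S2 was 815 against 862 CPM. Rod markers in S2 summed to 395 CPM in *Ctnnb1* cKO and 306 CPM in WT, and microglia markers to 395 and 88.7 CPM.

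GABAergic-like cells of the *Ctnnb1* cKO library numbered 47, and 0 of 5 members tested passed, with ratios of −0.06 (−0.26 to 0.14) for *Tfap2b*, 0.34 for *Tfap2a*, 0.28 for *Pax6* and 0.31 for *Meis2*. There 5.72% of genes were called higher and 16.9% lower. In Müller glia-like cells 0 of 4 passed, with 0.76 (0.59 to 0.93) for *Pax6* and 0.73 for *Meis2*, and 3.26% and 5.82% of genes called higher and lower. In precursors *Tfap2b* and *Neurod2* counted as lower, of 6 tested, with 4.68% of genes called higher and 13% lower. Both calls came from 0 UMIs among 149803, which allows up to 20.03 CPM, beside WT levels of 15.1 and 21.7 CPM. The intervals of both log2 ratios included 0, with upper ends of 0.75 and 0.21, so that neither difference was resolved at this depth.

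**Figure D5:**
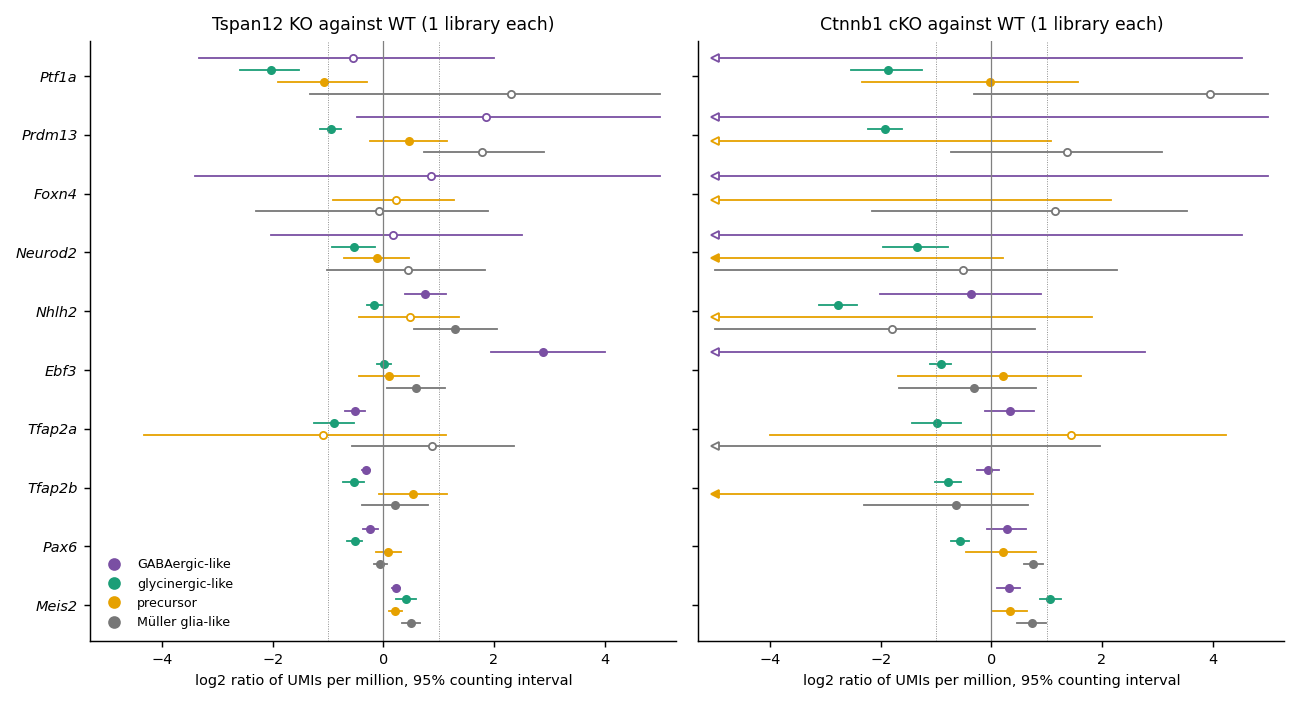
Log2 ratios of CPM of each knockout library against WT in the 4 classes, with 95% counting intervals and 1 library per genotype. *Ptf1a* in glycinergic-like cells lies at −2.04 in *Tspan12* KO and −1.87 in *Ctnnb1* cKO, and both knockouts share the WT library. Open symbols have under 50 UMIs, arrowheads mark ratios beyond the axis or with 0 UMIs, and dotted lines mark a ratio of 1 in either direction.

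Other transcription factors of the inner retina, 47 in a list chosen with earlier results of these data known, were read in the same comparisons. In amacrine against Müller glia-like cells, 8 of 27 tested in all 3 libraries were higher, against 6.5% of all genes. They were led by *Ebf1* (1196, 1115 and 558 CPM in amacrine cells). *Sox2*, a progenitor and glial factor, was the 1 that was lower, against 5.93% of all genes. Between GABAergic-like and glycinergic-like cells, 8 of 20 were lower, against 2.26% of all genes. *Lmo4*, a LIM-only cofactor, was among those higher, where 2.65% of all genes were called higher. *Ebf1*, a relative of *Ebf3*, had levels of 9.42, 38.1 and 9.66 CPM in GABAergic-like and 1872, 1896 and 551 CPM in glycinergic-like cells. *Pou3f1*, *Nfix*, *Neurod4*, *Nfib* and *Tcf4* were also lower. Of the other AP-2 genes, *Tfap2d* and *Tfap2e* were higher in GABAergic-like cells of WT (27.0 against 4.36 CPM and 61.6 against 0.623 CPM) and of *Tspan12* KO (30.7 against 3.15 CPM and 42.1 against 0.787 CPM). Both had too few UMIs in *Ctnnb1* cKO. *Tfap2c* did not follow them, with 28.9 against 92.8 CPM in WT (log2 ratio −1.68) and 53.5 against 55.9 CPM in *Tspan12* KO. In precursors against amacrine cells 3 of 24 were higher (*Neurod4*, *Rorb* and *Nfib*), against 2.82% of all genes. Lower were 4 (*Ebf1*, *Lmo4*, *Zfhx3* and *Pou3f1*), against 6.49%.

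Between *Tspan12* KO and WT, 0 of the other factors were lower in any of the 4 classes, of 33 to 38 tested in a class. Higher were 2 in GABAergic-like cells, 2 in glycinergic-like cells, 1 in precursors and 3 in Müller glia-like cells. Of all genes, 1.03%, 0.925%, 0.455% and 0.701% were called higher in these classes in this order. The shares called lower were 0.331%, 0.375%, 0.283% and 0.184%. *Maf*, a bZIP factor, passed in 3 of the 4 classes, at 330 against 87.3 CPM in GABAergic-like cells (1.92, 1.65 to 2.19), 85.2 against 35.3 CPM in precursors and 102 against 45.1 CPM in Müller glia-like cells. *Ebf1* was higher in GABAergic-like cells from 67 against 15 UMIs, and the spread of these UMIs over single cells was not read. The median of the list in glycinergic-like cells was −0.03, beside 0.01 over all genes. In *Ctnnb1* cKO the list gave 1 higher and 4 lower of 26 tested in GABAergic-like cells, where 5.72% and 16.9% of all genes were called. It gave 2 and 5 of 32 in glycinergic-like cells (8.51% and 11.6%), 1 and 2 of 34 in precursors (4.68% and 13%) and 3 and 1 of 30 in Müller glia-like cells (3.26% and 5.82%).

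The genes most like each member were found over 38 sums of a class in a library, among 15710 genes. The sums share libraries and depth, so the correlations are descriptions. *Tfap2a* and *Tfap2b* were both closest to *Gm26688* (Pearson r of 0.98 and 0.96), and to each other at 0.95. *Ptf1a* was closest to *Pou3f1* (0.90) and *Neurod2* to *Pou3f1* and *Klhl35* (0.88 and 0.87). *Prdm13* was closest to *Krt24* (0.98), *Ebf3* to *Six2* (0.93) with *Prdm13* also at 0.92, and *Nhlh2* to *Zfp804a* (0.98). *Pax6* was closest to *Ctnnd2* (0.92), *Meis2* to *Pclo* (0.94), a presynaptic scaffold, and *Foxn4* to *Eri2* (0.84), *Rad54b* and the histone gene *H3c6*.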

How the data were processed

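Libraries were prepared with 3' droplet chemistry, and the unit of the deposited matrices is raw UMI counts for each gene in each barcode. The authors ran Cell Ranger on each library separately. The sources name different Cell Ranger versions and genome builds, so no gene coordinates are taken from them. Promoter sequences are from RefSeq on GRCm38.p6. WT, *Tspan12* KO and *Ctnnb1* cKO held 9951, 14426 and 9151 barcodes and 92684519, 137114957 and 37008362 counts.

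Barcodes passed with 250 or more genes, 500 or more UMIs and no more than 15% mitochondrial UMIs, and the highest Scrublet doublet scores were removed at 0.8% per 1000 cells (760, 1656 and 665 cells). Clustering used scanpy version 1.11.5 and leidenalg version 0.10.2, with 2000 variable genes without the 10 members, 30 components, 20 neighbours and resolution 1, and no batch integration. Amacrine clusters were split into 18 subclusters. A subcluster was named by at least 3 raised markers (log2 fold of at least 1, in at least 10% of cells) and by more of one transmitter list than of the other. This counting rule was set after the subclusters were seen. 2 subclusters led by ganglion or horizontal markers and 1 with over 3 times the usual depth were left out, and 1 stayed unnamed.

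Counts were summed per class and library and scaled to 1000000 (CPM). Intervals are exact Poisson for levels, exact conditional binomial for ratios and exact Clopper-Pearson for shares, at 95%. Printed ratios have no pseudocount, and calls use 5 CPM. Scaling by edgeR version 4.0.16 (TMM), other filters, pseudocounts, clusterings and a marker selection were alternatives. The statistics were tested on simulated counts. Named were all members, the 3 genes most like each (genes with at least 200 UMIs, sums of at least 30 cells), up to 6 other factors in each direction of a comparison, and markers. *Tfap2c*, *Maf*, and the values of subclusters and single cells were chosen after the values were seen. The members and lists were chosen with earlier results of these data known. The other software was scipy version 1.17.1, numpy version 2.4.6, pandas version 2.3.3, R version 4.3.3 and Python version 3.11.15. A result for one of the other factors is not reported here.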

Additional observations from a re-analysis of the deposited data

Results flagged for a closer look

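2 members had a signal in cells that the 4 compared classes do not include. *Ebf3* in the unnamed amacrine subcluster reached 1681 CPM in WT and 1625 CPM in *Tspan12* KO, above its intervals in each of the 4 classes of the same library. This subcluster had no *Gad1* UMI in either library, and its raised transmitter markers were *Gad2*, *Dab1* and *Prox1*. *Foxn4* in progenitors reached 29.9 CPM (23.9 to 36.9) in WT, 21.2 CPM (13.7 to 31.4) in *Tspan12* KO and 28.0 CPM (11.3 to 57.8) in *Ctnnb1* cKO. In WT and *Tspan12* KO its intervals lay above those of all 4 classes. For *Ctnnb1* cKO only 7 UMIs were counted in progenitors.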

How the results depend on the processing

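Of 67 counts of members recomputed under other settings, 54 stayed within 1.5 times the reported count. For GABAergic-like against glycinergic-like cells (5 reported) the count was 3 without doublet removal, 3 at 5% mitochondrial UMIs, 2 with the marker selection and 2 without subcluster S3. For amacrine against Müller glia-like cells (6) it was 3 with the marker selection and 3 without S3. For *Tspan12* KO (2) it was 1 at 5% mitochondrial UMIs, 1 with whole clusters and 5 with the marker selection. For *Ctnnb1* cKO (7) it was 11 with no filter on low counts, 2 without doublet removal, 3 with the marker selection and 11 without the 3 cells with most UMIs. Runs without S3, with whole clusters or without those 3 cells were chosen after seeing the data. The fewer UMIs left without S3 took members below the minimum, and the causes of the other shifts were not tested. With 5 CPM added (1 CPM in one alternative), *Ptf1a* in *Tspan12* KO glycinergic-like cells ranged from −2.12 to −0.44 over 13 alternatives (−1.87 reported), and only the marker selection left it above −1. *Ebf3* in GABAergic-like cells ranged from −0.61 to 2.71.

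Of 915 recomputed single values, 744 were labelled as unchanged, 157 as moved and 14 as turned in direction. With the marker selection the GABAergic against glycinergic ratios were 1.22 for *Ptf1a*, 1.11 for *Prdm13*, 1.15 for *Ebf3*, 1.09 for *Nhlh2* and 0.52 for *Neurod2* in WT. They were 0.64 for *Prdm13*, 0.56 for *Ebf3*, 1.22 for *Nhlh2* and 0.13 for *Neurod2* in *Tspan12* KO, and 0.63 for *Prdm13* in *Ctnnb1* cKO. The selection also gave −0.61 for *Ebf3* in *Tspan12* KO GABAergic and −0.87 for *Meis2* in *Ctnnb1* cKO glycinergic cells, and whole clusters gave −0.54 for that *Meis2* value. *Tfap2b* in *Ctnnb1* cKO precursors was 0.45 without doublet removal. With libraries clustered separately, no *Ctnnb1* cKO precursor cluster was found, so that comparison has no value there. No paired analysis was possible because each genotype has 1 library, and for the same reason no replicate could be left out. Depth limits *Foxn4* and the *Ctnnb1* cKO GABAergic-like cells and precursors.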

Other observations

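Some levels of the members lay outside amacrine cells. *Pax6* in cells resembling pigment epithelium was 585 CPM in *Tspan12* KO, 683 CPM in *Ctnnb1* cKO, with intervals that overlapped those of the highest amacrine group in each library. *Pax6* in rods was 19.2, 23.4 and 102 CPM for WT, *Tspan12* KO and *Ctnnb1* cKO, and the share of thinned rods with a *Pax6* UMI was 3.28%, 3.88% and 18.4%. *Meis2* in cones was 1076, 799 and 625 CPM. In the subcluster left out for its depth, *Ptf1a* was at 64.6 CPM in WT and 28.0 CPM in *Tspan12* KO, and *Tfap2b* at 198 and 93.1 CPM.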
